A study of Mus musculus with 3 samples.

Results

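The 2 libraries compared here are the library labelled WT and the library labelled Dnmt3L KO, out of 3 bisulfite libraries of mouse spermatogonia at postnatal day 7. They were followed at the 8524041 autosomal CpG sites that both list, out of 20383623 autosomal CpG sites of the reference, which is 41.8%. Spermatogonia are the mitotic male germ cells of the testis. Per the labels, the cells of each library were sorted by FACS with an anti-EpCAM antibody from mice of strain C57BL6/J, so that strain, age, sort and library method were shared and the genotype label differed. The third library, labelled Pld6 KO, was used only for values set beside the others. Bisulfite treatment turns unmethylated cytosines, but not methylated ones, into bases read as T, so that a read calls every CpG site it covers as methylated or not. The methylation level is the number of methylated calls divided by all calls, as a fraction. There was 1 library a genotype in the files, which gives no replicate spread and no test, and genotype and library cannot be told apart. All intervals are 95% intervals from the calls (Wilson for a level, Newcombe for a difference). They cover counting error only and treat calls of the same read as independent. According to the methods of the study, WT animals came from *Pld6* and *Dnmt3l* breeding pairs and included heterozygotes, and which animals gave this library was not given in the sources used here. Those methods name biological replicates for each genotype, and whether a deposited library is 1 of them or pools them was not given either.

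DNMT3L is a relative of the de novo DNA methyltransferases that has no catalytic activity of its own and stimulates DNMT3A and DNMT3B. In the male germ line, methylation is erased in primordial germ cells and set again in prospermatogonia before birth, and DNMT3L is required for that wave. In most mammalian cells, CpG-rich promoters (CpG islands) stay free of methylation, whereas gene bodies and the DNA between genes are mostly methylated.

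*Dnmt3l* lies on chromosome 10 from 78042287 to 78063622 of GRCm38, on the plus strand, and holds 299 CpG sites. A run of 53 of these sites had 0 calls in the Dnmt3L KO library and 88 calls in WT. The other 246 sites of the gene had 289 and 542 calls, respectively. The stretch without reads lies inside the gene, and no value goes against the label. The Dnmt3L KO library was the smaller one, with 18874945 autosomal calls against 42893386 in WT. At the shared sites the mean was 1.94 calls in Dnmt3L KO and 3.45 in WT.

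Unmethylated starts of maternally imprinted genes and of germ cell genes were used to look for other cells in the sort, since somatic cells carry methylation at many of them. Whether each start lies in the region that carries the imprint was not checked, and starts outside it would lower a pooled level. Within 0.5 kb of the start of *Kcnq1ot1* (Lit1), the level was 0.0780 in WT (0.0441 to 0.134) and 0.0154 in Dnmt3L KO (0.00272 to 0.0821). Over 16 maternally imprinted genes it was 0.0311 and 0.00969. Of these, 10 were higher in WT and 3 in Dnmt3L KO. The WT levels ran from 0 in 3 genes to 0.235 at *Airn* (0.140 to 0.368, 51 calls), which had 0 over 27 calls in Dnmt3L KO. Over the starts of *Ddx4*, *Dazl*, *Mael*, *Sycp3* and *Tdrd1*, it was 0.0936 in WT (0.0713 to 0.122) and 0.00662 in Dnmt3L KO (0.00182 to 0.0238). All 5 genes were higher in WT, with levels of 0.0278 to 0.281 against 0 to 0.0147, and 3 of them had no methylated call in Dnmt3L KO. The part of other cells in the WT values below was not tested.

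Each shared site was put into 1 feature of the curated RefSeq models, in the order promoter (2 kb upstream to 0.5 kb downstream of a transcript start), exon, intron and intergenic. The level was lower in Dnmt3L KO in all 4 features, and promoters were the least methylated in both libraries. In promoters (735222 sites) it was 0.180 in WT and 0.0706 in Dnmt3L KO, a difference of 0.110 (0.109 to 0.110). Exons outside promoters went from 0.680 to 0.332, a difference of 0.348 (0.347 to 0.349). Introns had the highest level in each library, 0.813 in WT and 0.414 in Dnmt3L KO, and differed by 0.3996 (0.3992 to 0.4001). Intergenic sites had 0.686 and 0.253, a difference of 0.434 (0.433 to 0.434). On each of the 19 autosomes, the Dnmt3L KO level was below the WT level in every feature. The differences by chromosome lay between 0.0894 and 0.121 in promoters, between 0.324 and 0.373 in exons, between 0.360 and 0.434 in introns and between 0.299 and 0.508 in intergenic DNA.

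The Dnmt3L KO level as a percentage of the WT level is called the kept percentage here. It compares the libraries and does not say whether methylation was retained or set anew. It was 50.9% in introns, 48.8% in exons, 39.2% in promoters and 36.8% in intergenic DNA. Intergenic sites made up 44.2% of the methylation of the WT library, 50.1% of what was missing in Dnmt3L KO and 36.8% of what was left. Introns made up 46.4%, 40.9% and 53.4%, respectively. Promoters held 8.63% of the shared sites but 2.45% of the missing methylation.

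The size of the intergenic difference depended on deeply covered sites. It was 0.251 at sites with at least 5 calls in each library and 0.489 when sites over 20 calls in either library were left out. Chromosome 2 gave the lowest intergenic WT level, 0.498 against a median of 0.756 over the autosomes. The kept percentage of intergenic DNA moved less, between 35.5% and 38.4% over the 7 other settings. That of promoters ran from 29.0% at sites with at least 5 calls to 43.1% with predicted gene models. The order introns, exons, intergenic DNA held in all 8 settings, whereas promoters were above intergenic DNA in 6 of the 8.

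**Figure D1:**
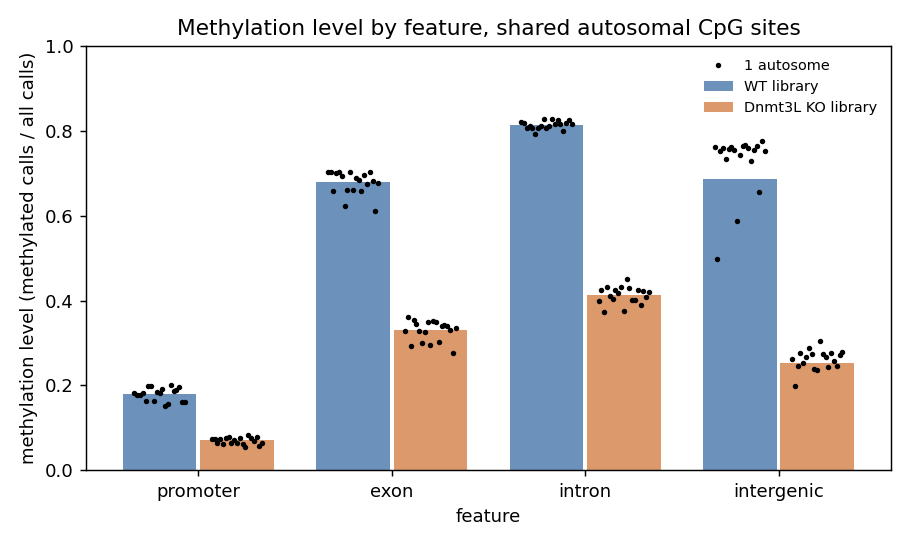
Methylation level (methylated calls divided by all calls) by feature at the shared autosomal CpG sites. Bars are the pooled levels of the WT and Dnmt3L KO libraries and points are the 19 autosomes. Promoters stand at 0.180 and 0.0706, introns at 0.813 and 0.414, and the low intergenic WT point is chromosome 2 at 0.498.

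The library labelled Pld6 KO, from mice without the mitochondrial protein PLD6 that takes part in piRNA biogenesis, gave values near WT in the same features. At these 7922515 sites, listed in all 3 libraries, Pld6 KO had 0.218 in promoters, 0.720 in exons, 0.822 in introns and 0.699 in intergenic DNA. WT had 0.182, 0.681, 0.814 and 0.683 there, and Dnmt3L KO had 0.0714, 0.333, 0.416 and 0.253. Both comparisons share the WT library.

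Within genes, the first exon stood apart from the rest. In the longest transcript of genes with at least 3 exons, and outside promoters, first exons had a level of 0.118 in WT and 0.0411 in Dnmt3L KO, internal exons 0.749 and 0.376, and last exons 0.715 and 0.336. First introns had 0.734 and 0.365, and later introns 0.845 and 0.436. By transcript part, 5′ UTR sites had 0.340 and 0.169, coding sites 0.663 and 0.326, and 3′ UTR sites 0.781 and 0.380. These 3 parts kept 49.6%, 49.1% and 48.6%, although their WT levels differed. Exons of non-coding transcripts kept 43.2%.

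Between genes, the kept percentage was lower with distance from the nearest gene. It was 39.96% under 10 kb from a gene, 38.1% at 10 to 50 kb, 35.2% at 50 to 200 kb and 32.2% over 200 kb. The WT levels of these classes were 0.747, 0.720, 0.741 and 0.557, and the Dnmt3L KO levels 0.298, 0.275, 0.261 and 0.180. The class over 200 kb held 3853667 WT calls on 622222 sites, against 3402137 on 1043305 sites at 50 to 200 kb. The weight of deeply covered sites in these values was not separated. Both repeat-masked and other sequence were lower in Dnmt3L KO. Repeat-masked intergenic sites had 0.566 in WT and 0.193 in Dnmt3L KO, and the others 0.743 and 0.277. The repeat-masked ones were also deeply covered, with 4546990 WT calls on 771081 sites. In introns the Dnmt3L KO level was 0.411 in repeat-masked and 0.414 in other sequence.

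The profile around the starts of protein-coding genes had the same shape in both libraries, a wide trough centred on the start. From 10 to 3 kb upstream, the level per bin of 0.5 kb lay between 0.729 and 0.761 in WT, and the kept percentage between 42.6% and 44.4%. In the 0.5 kb downstream of the start it was 0.0499 in WT and 0.0189 in Dnmt3L KO. The kept percentage was lowest on the upstream edge of the trough, 31.9% from 1 to 0.5 kb upstream, where the levels were 0.213 and 0.0681. On the downstream side it passed 50.5% from 2.5 to 3 kb and stayed between 50.7% and 52.1% from 3 to 10 kb. The flanks were thus unlike in Dnmt3L KO, with 0.317 at the bin farthest upstream and 0.396 at the one farthest downstream, against 0.737 and 0.779 in WT.

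**Figure D2:**
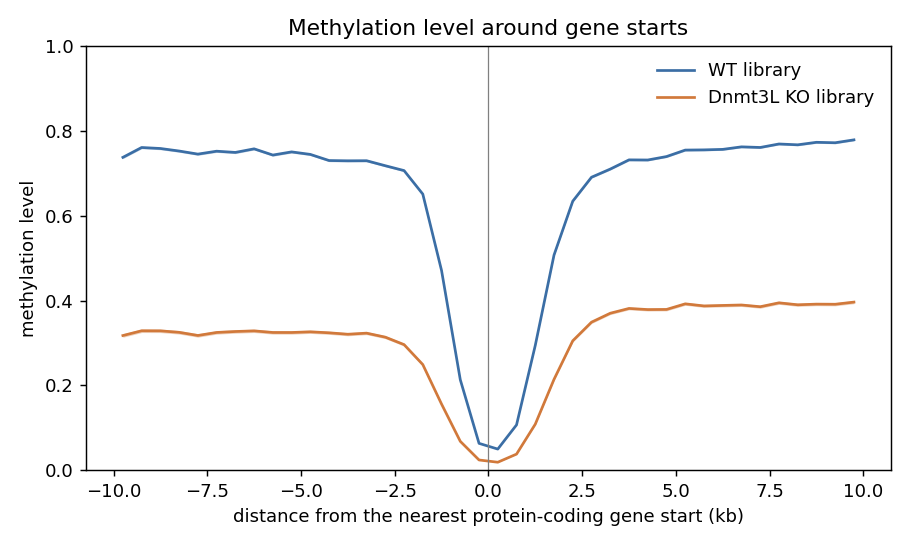
Methylation level against the distance (kb, negative upstream) from the nearest start of a protein-coding gene, in bins of 0.5 kb. Lines are the WT and Dnmt3L KO libraries, and shading, mostly thinner than the line, is the 95% Wilson interval. Both lines reach their lowest values, 0.0499 and 0.0189, just downstream of the start.

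CpG density was followed as the number of CpG sites within 100 bp, the site itself counted. At sites with no other CpG in that window, introns went from 0.861 in WT to 0.436 in Dnmt3L KO and exons from 0.860 to 0.428. Intergenic sites of the same density went from 0.823 to 0.2996, and promoter sites from 0.689 to 0.266. Exons and introns were close at low density and parted at high density. In the class of 8 to 12 CpG sites, exons had 0.589 in WT and 0.262 in Dnmt3L KO, and introns 0.546 and 0.239. Weighted to the densities of exon sites, the level of exons minus that of introns was 0.00964 in WT (0.00898 to 0.0103) and -0.00223 in Dnmt3L KO (-0.00318 to -0.00127). In the pooled values exons were below introns, and exons have more sites in the dense classes. Intergenic DNA stayed below introns in Dnmt3L KO from 1 to 12 CpG sites per window. In promoters with over 12 CpG sites in the window, WT stood at 0.00667 and Dnmt3L KO at 0.00422. These sites bound from above the share of unconverted cytosines at CpG islands in both libraries.

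**Figure D3:**
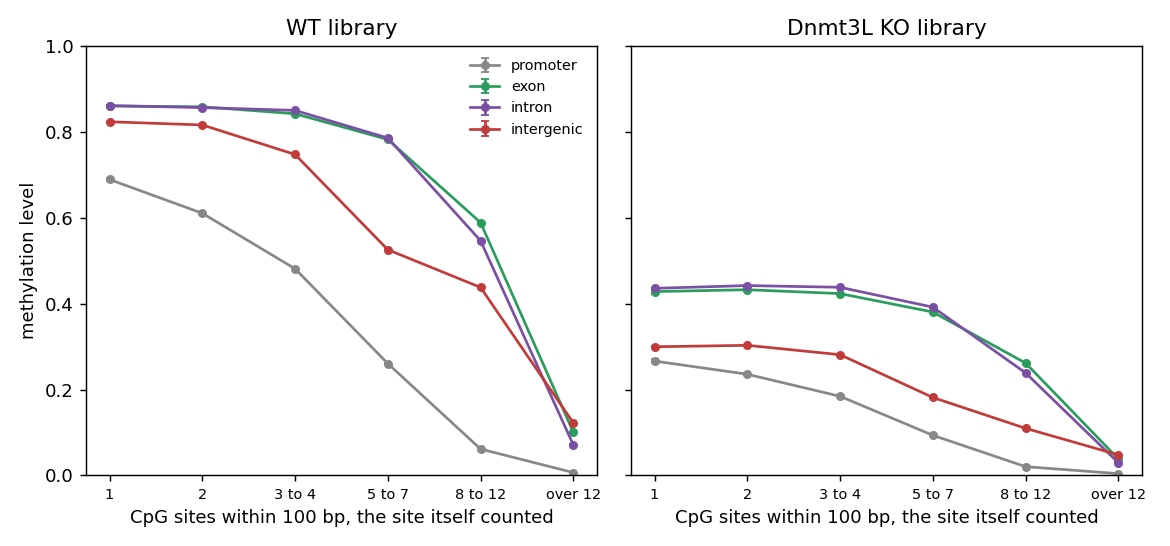
Methylation level by the number of CpG sites within 100 bp, the site itself counted, for promoter, exon, intron and intergenic sites, in the WT library (left) and the Dnmt3L KO library (right). Bars, mostly hidden by the points, are 95% Wilson intervals. Exon and intron lines lie close together at low density and part in the 2 densest classes, and the intergenic line, at 0.823 against 0.861 for introns at isolated sites in WT, stands at 0.2996 against 0.436 in Dnmt3L KO.

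Introns lie in more GC-rich DNA than much of the intergenic space, so that the features were also compared within classes of the GC content of the surrounding 100 kb. In the lowest of 5 classes with equal numbers of sites (33.5% to 40.3% GC), intron sites went from 0.801 to 0.294 and intergenic sites from 0.595 to 0.174. In the highest class (47.6% to 58.9% GC), introns went from 0.797 to 0.465 and intergenic sites from 0.745 to 0.343. Introns kept 36.7%, 46.6%, 51.9%, 55.6% and 58.4% from the lowest class to the highest, and intergenic DNA 29.2%, 34.4%, 39.0%, 43.8% and 46.0%. Promoters kept 28.2% in the lowest class and 43.3% in the highest. The difference between introns and intergenic DNA was present in all 5 classes. It was also present at sites with 1 or 2 CpG per window and at most 20 calls, where the WT levels were close. There introns went from 0.850 to 0.321 in the lowest class and from 0.859 to 0.520 in the highest, and intergenic sites from 0.790 to 0.208 and from 0.838 to 0.421.

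Sites were then divided by their WT state, at the sites with at least 5 WT calls. Of these, 768992 sites were methylated in every WT call, and their level in Dnmt3L KO was 0.440 (0.439 to 0.441). By feature it was 0.498 in introns, 0.488 in exons, 0.397 in promoters and 0.366 in intergenic DNA. At the 274092 sites with no methylated WT call, the Dnmt3L KO level was 0.0112 (0.0110 to 0.0115), and in promoters 0.00535. At partly methylated sites (over 0 to 0.5 in WT), promoters kept 17.8%, exons 26.1%, intergenic DNA 33.2% and introns 49.3%. The classes were cut on the WT calls that also give the WT level, so that counting error enters these percentages. How much it moved them was not tested. The intergenic sites of this class were deeply covered, with 2969368 WT calls on 99584 sites.

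The bases beside the CpG separated Dnmt3L KO levels that were alike in WT. With both strands merged there are 10 classes by the base on each side. In introns, TCGA sites went from 0.819 in WT to 0.259 in Dnmt3L KO and kept 31.6%, the lowest share. GCGC sites went from 0.771 to 0.517 and kept 66.99%, the highest. CCGG and CCGA kept 42.4% and 44.3%, and ACGC and CCGC kept 61.2% and 63.4%. At intron sites with no other CpG within 100 bp, TCGA had 0.843 and 0.263, and GCGC had 0.892 and 0.622. In the Pld6 KO library the same isolated sites had 0.839 and 0.889. The order was found in every autosome, with intron levels in Dnmt3L KO of 0.225 to 0.289 for TCGA and 0.464 to 0.551 for GCGC over the 19 chromosomes. It was also found in each class of regional GC content, from 0.175 and 0.395 in the lowest to 0.317 and 0.543 in the highest. In promoters with a WT level of at least 0.6, TCGA sites went from 0.839 to 0.216 and GCGC sites from 0.871 to 0.440.

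With 2 bases on each side there are 136 classes, which together hold the intron sites. In WT, 121 of these had a level of at least 0.7, and the Dnmt3L KO levels ran from 0.148 to 0.732. The class that kept most was GGCGTA (13497 intron sites), which stood at 0.856 in WT (0.852 to 0.859) and 0.732 in Dnmt3L KO (0.727 to 0.738). GGCGGA went from 0.807 to 0.687 and TACGTA from 0.892 to 0.730. These 3 classes kept 85.6%, 85.2% and 81.8%. The class that kept least was GTCGAC (5500 sites), which stood at 0.782 in WT (0.776 to 0.788) and 0.148 in Dnmt3L KO (0.141 to 0.155). ATCGAC went from 0.813 to 0.162, ATCGAT from 0.816 to 0.171 and AACGAC from 0.787 to 0.179. These 4 kept 18.9%, 19.9%, 20.9% and 22.7%. In the Pld6 KO library, GGCGTA had 0.863 and GTCGAC had 0.784. Intergenic sites, which share the library but not the CpG sites, ranked the classes alike. Of the 10 classes that kept most in introns, 9 were among the 10 that kept most in intergenic DNA, and of the 10 that kept least, 8 were among the 10 that kept least there. GGCGTA and GTCGAC were first and last in both, with 65.9% and 12.7% in intergenic DNA. Whether the reading of these sequences differs between libraries was not tested beyond the Pld6 KO values.

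**Figure D4:**
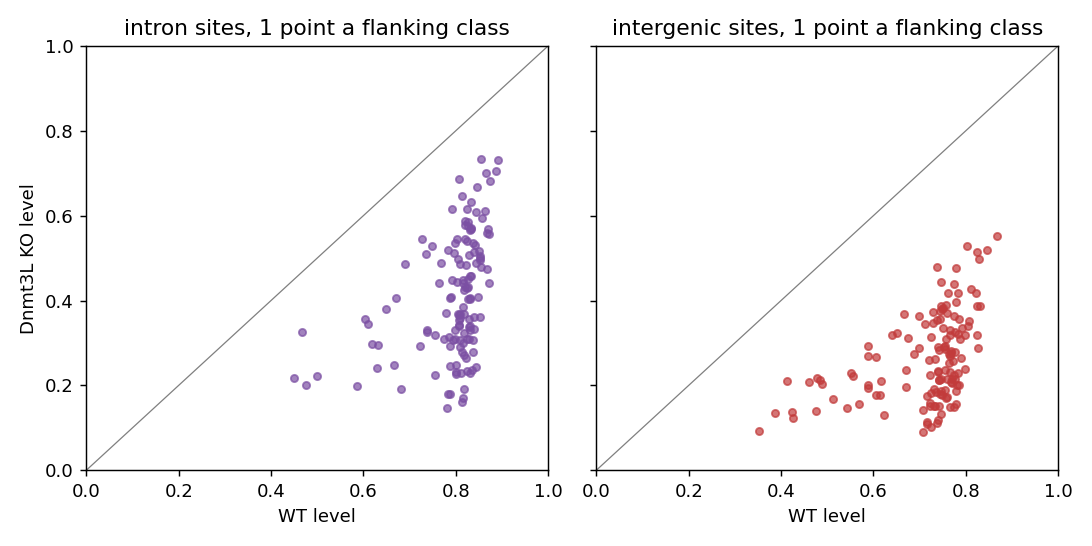
Dnmt3L KO level against WT level for the 136 classes of CpG sites by the 2 bases on each side, in introns (left) and intergenic DNA (right). Each point is 1 class with the calls pooled, and the grey line marks equal levels. In introns the Dnmt3L KO levels run from 0.148 to 0.732, and most classes stand at a WT level of at least 0.7.

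Genes were described by 1 promoter at the start farthest upstream and by a gene body, the exon and intron sites past the promoter. Of 23634 autosomal genes, 20629 had a promoter covered by 10 calls or more in both libraries, and 17051 a body covered by 50 calls or more. The median promoter stood at 0.120 in WT and at 0.0345 in Dnmt3L KO, and the median body at 0.823 and 0.395. A promoter was lower by at least 0.3 in 4804 genes, 23.3% of those measured. A body was lower by that much in 12573 genes, 73.7%. Within 0.02 of this threshold lay 542 promoters and 1905 bodies. The promoter share depended on the number of calls asked for, since methylated promoters have few CpG sites. With at least 30 calls in each library it was 10.6% of 15809 promoters. The interval of the difference lay above 0 in 9656 promoters and 16494 bodies, held 0 in 10957 and 554, and lay below 0 in 16 and 3.

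Promoters unmethylated in WT were unmethylated in Dnmt3L KO as well. Of 12743 promoters under 0.2 in WT, 12714 were under 0.2 in Dnmt3L KO. Of 4499 promoters with a WT level of at least 0.6, 999 (22.2%) were under 0.2 in Dnmt3L KO, 3045 (67.7%) lay from 0.2 to 0.6, and 455 (10.1%) were still at 0.6 or over. A Dnmt3L KO level of at least 0.5 was found in 1040 of them, 23.1%. Of the 14185 bodies with a WT level of at least 0.6, 780 (5.50%) were under 0.2 in Dnmt3L KO and 1030 (7.26%) at 0.6 or over. Promoters rest on fewer calls than bodies, with a median of 57 in Dnmt3L KO against 213, and a level from few calls spreads more widely.

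**Figure D5:**
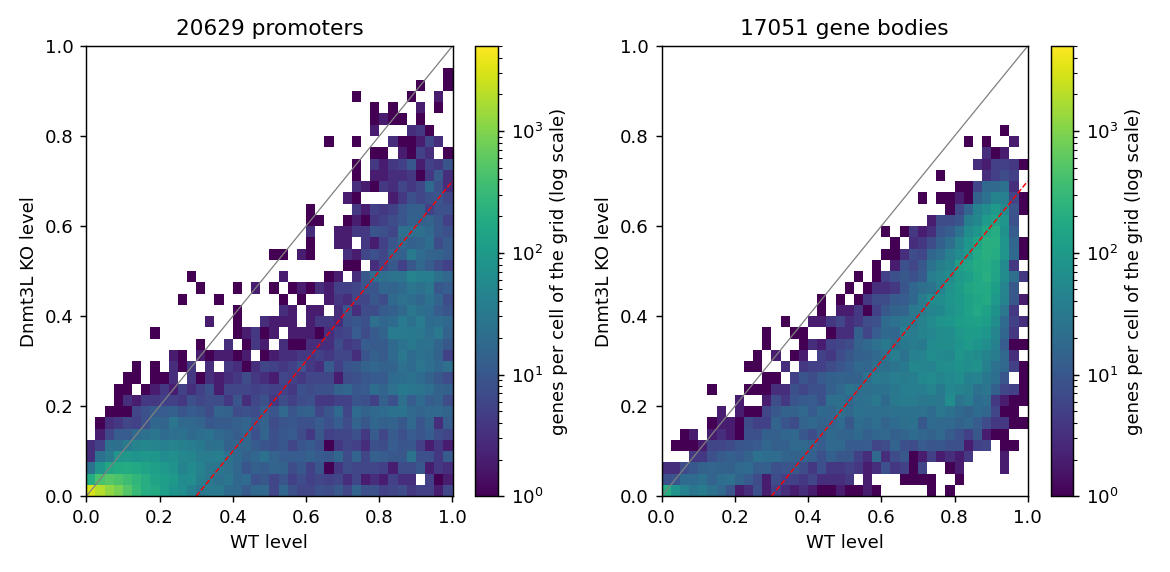
Dnmt3L KO level against WT level for 20629 promoters (left) and 17051 gene bodies (right), as the number of genes per cell of a grid, on a log colour scale. The grey line marks equal levels and the dashed red line a difference of 0.3. Promoters pile up near 0 in both libraries with a spread below the dashed line, and most bodies lie near a WT level of 0.823 and a Dnmt3L KO level of 0.395.

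The number of CpG sites in a promoter went with its state. Promoters with under 25 CpG sites had a pooled level of 0.756 in WT and 0.303 in Dnmt3L KO, and 77.7% of 2526 were lower by at least 0.3. With 25 to 49 sites it was 0.472 and 0.186, and 51.3% of 4873. With 50 to 99 sites it was 0.110 and 0.0376, and 3.94% of 8150. With 100 sites and over it was 0.0487 and 0.0172, and 0.374% of 5080. The kept percentages of the 4 classes were 40.1%, 39.3%, 34.3% and 35.2%.

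Gene bodies behind unmethylated promoters kept more. Bodies of genes whose promoter was under 0.2 in WT kept 52.6%, with 0.794 in WT and 0.417 in Dnmt3L KO. Behind promoters of 0.6 and over they kept 45.1%, with 0.783 and 0.353. By gene length, the kept percentage was 43.6% under 5 kb, 50.7% from 5 to 20 kb, 53.6% from 20 to 50 kb, 52.9% from 50 to 200 kb and 46.1% over 200 kb. Bodies of genes under 5 kb had low levels in both libraries, 0.269 and 0.117. Bodies of non-coding genes went from 0.755 to 0.318 and those of protein-coding genes from 0.789 to 0.404.

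The protein-coding genes with the largest promoter decreases were taken from the 10610 promoters with at least 50 calls in each library. Their values are the extremes of that list and are given as a description, with intervals that do not account for the choice. *Misp*, which encodes an actin-bundling protein of the mitotic spindle, had a promoter level of 0.936 in WT (0.882 to 0.966, 140 calls) and 0.0759 in Dnmt3L KO (0.0353 to 0.156, 79 calls). The promoter shared by *C1qtnf5* and *Mfrp*, which are annotated at the same start, had 0.876 and 0.0833. *Mrap*, which encodes an accessory protein of the melanocortin 2 receptor, had 0.829 and 0.0400. The others were *Iqcf3*, *Hcar2* (a receptor for hydroxybutyrate and niacin), *Rnf186*, *Tssk2* (a kinase of spermatids), *Sycn* (a zymogen granule protein of the pancreas) and *4930519G04Rik*. The 10 genes, which stand for 9 regions, lay between 0.829 and 0.965 in WT and between 0.0400 and 0.226 in Dnmt3L KO. Sites of these regions that only 1 library lists had no part in the choice. They gave 0.901 over 232 calls in WT and 0.10 over 50 calls in Dnmt3L KO (0.0435 to 0.214), though some lie on the same reads.

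Among the promoters with at least 50 calls, the highest Dnmt3L KO levels were found at *Vwa7*, with 0.956 in WT (0.911 to 0.978, 158 calls) and 0.693 in Dnmt3L KO (0.582 to 0.786, 75 calls), and at *Arhgap23*, with 0.767 and 0.679. For *Arhgap23*, the interval of the difference held 0 (-0.0592 to 0.241). *Angptl8*, a secreted regulator of lipoprotein lipase, had 0.956 and 0.643, and *Muc2*, the main gel-forming mucin of the gut, had 0.889 and 0.618. *Igf2*, the fetal growth factor, had 0.905 and 0.576. The others were *Asb18*, *Ifitm5* (a protein of osteoblasts), *Rhd* (a blood group antigen), *Tmprss6* (a liver protease of iron balance) and *Slc2a9* (a urate transporter). All 10 lay between 0.571 and 0.693 in Dnmt3L KO. At the sites that only 1 library lists, these promoters had 0.914 over 243 calls in WT and 0.692 over 26 calls in Dnmt3L KO (0.5001 to 0.835).

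Windows of 200 bases upstream of the start, from 5 of these promoters, are printed as examples of the sequence behind such values and do not stand for the others. Each is free of annotated exons and covered by 10 calls or more in both libraries. The promoters of *C1qtnf5*, *Mrap* and *Iqcf3* were named for a large decrease, and those of *Muc2* and *Ifitm5* for a high Dnmt3L KO level. The sequences were read from GRCm38 and run 5′ to 3′ on the strand of the gene, with the CG of every CpG site in capitals.
*C1qtnf5*, chr9:44100358-44100557, plus strand: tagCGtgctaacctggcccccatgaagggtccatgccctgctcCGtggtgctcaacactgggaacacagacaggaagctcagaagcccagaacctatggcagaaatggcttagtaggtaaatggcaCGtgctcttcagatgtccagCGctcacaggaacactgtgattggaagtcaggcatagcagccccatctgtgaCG
*Mrap*, chr16:90737984-90738183, plus strand: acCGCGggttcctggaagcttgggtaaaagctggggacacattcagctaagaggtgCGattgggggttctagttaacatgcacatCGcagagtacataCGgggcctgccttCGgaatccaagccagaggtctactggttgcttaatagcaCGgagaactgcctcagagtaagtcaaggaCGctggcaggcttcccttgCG
*Iqcf3*, chr9:106562450-106562649, minus strand: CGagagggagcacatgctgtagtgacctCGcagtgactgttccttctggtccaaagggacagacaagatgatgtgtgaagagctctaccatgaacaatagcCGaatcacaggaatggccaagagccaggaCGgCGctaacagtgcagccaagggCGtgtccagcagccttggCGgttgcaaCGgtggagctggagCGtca
*Muc2*, chr7:141689714-141689913, plus strand: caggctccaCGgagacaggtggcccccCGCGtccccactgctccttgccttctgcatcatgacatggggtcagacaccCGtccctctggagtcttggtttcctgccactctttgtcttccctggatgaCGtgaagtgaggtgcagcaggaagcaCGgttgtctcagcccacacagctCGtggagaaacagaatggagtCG
*Ifitm5*, chr7:140950244-140950443, minus strand: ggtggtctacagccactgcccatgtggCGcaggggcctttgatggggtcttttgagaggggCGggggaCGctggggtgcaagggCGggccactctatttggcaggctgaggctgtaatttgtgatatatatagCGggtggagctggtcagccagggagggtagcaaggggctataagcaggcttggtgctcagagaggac

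The *Mrap* window, 24 to 223 bases upstream of the start, holds 9 CpG sites, all shared. Its level was 0.743 over 35 WT calls, whereas none of 20 Dnmt3L KO calls was methylated, which allows a level of up to 0.15 by 3 calls of the total and of up to 0.161 by the Wilson interval. In the *Iqcf3* window, with 9 shared sites, the levels were 0.966 over 59 calls and 0.0476 over 21 calls. The *C1qtnf5* window had 0.929 over 28 calls and 0.50 over 10 calls (0.237 to 0.763), above the level of its whole promoter. The *Ifitm5* window, just upstream of the start, had 0.923 over 13 calls and 0.846 over 13 calls, and its interval of the difference held 0 (-0.202 to 0.353). The *Muc2* window had 0.933 and 0.579.

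The interval of the difference lay below 0, with Dnmt3L KO higher, in 16 of 20629 promoters. These intervals are not adjusted for the number of promoters or for the choice of the named ones. The largest increase among promoters with at least 50 calls was at *Vwa2*, which encodes an extracellular matrix protein, with 0.0471 in WT and 0.164 in Dnmt3L KO, a difference of -0.117 (-0.233 to -0.0177). *Fam178b* and *Lactb2* differed by -0.104 and -0.0911, and for *Gm29776* and *Ube2z* the interval held 0. Of the 10610 promoters of this depth, 1023 were higher in Dnmt3L KO. At sites that only 1 library lists, these 5 promoters had 0.0609 over 361 calls in WT and 0.180 over 61 calls in Dnmt3L KO (0.104 to 0.295). The promoters have unlike shares of the calls in the 2 libraries, so that these pooled values do not measure an increase. *Gm29776* had 0.417 over 12 calls in WT and 0.467 over 15 calls in Dnmt3L KO there. *Vwa2* had 0.0133 over 150 calls and 0.138 over 29 calls. There *Fam178b*, *Lactb2* and *Ube2z* had no methylated call in Dnmt3L KO, over 6, 8 and 3 calls, against 0.216, 0.0385 and 0.0455 in WT.

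Among the 8366 protein-coding gene bodies with at least 200 calls in each library, the largest decreases were at *Adam34l*, *Zbtb39*, *Slc18b1*, *Gm5724* and *Tmprss11f*. *Adam34l*, of the ADAM metalloprotease family, went from 0.831 (0.788 to 0.866, 354 calls) to 0.0952 (0.0637 to 0.140, 231 calls). *Zbtb39*, a zinc finger gene, went from 0.809 to 0.0868. Among the 5 bodies with the highest Dnmt3L KO level were those of *Pofut2* (a protein O-fucosyltransferase), *Kctd10*, *Ncapd2* (a condensin subunit) and *Slc39a6* (a zinc transporter). *Pofut2* went from 0.921 (0.890 to 0.944, 392 calls) to 0.751 (0.688 to 0.805, 205 calls), and the 5 bodies kept 76.7% to 81.6%. The lowest Dnmt3L KO levels among the bodies of at least 0.6 in WT were at *Vmn2r13*, *Sirpb1b*, *Cyp2j8*, *Tmem196* and *Ccdc7b*, with 0.0558 to 0.0748 against 0.615 to 0.704 in WT. At sites that only 1 library lists, the 5 highest bodies had 0.917 in WT and 0.653 in Dnmt3L KO, and the 5 lowest had 0.674 and 0.108.

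Lists of genes were described by their counts beside those over all genes (23.3% of promoters and 73.7% of bodies lower by at least 0.3). Of all promoters with under 25 CpG sites, 77.7% were lower, and the median of that class went from 0.844 to 0.286. The lists were not matched for the number of CpG sites, so that their promoter counts cannot be told apart from it. Sensory receptor families had methylated promoters in WT and low levels in Dnmt3L KO. For olfactory receptors, 323 of 1104 promoters could be measured, 259 (80.2%) were lower by at least 0.3, and the median promoter went from 0.813 to 0.20. For vomeronasal receptors, which detect pheromones, 47 of 54 measured promoters were lower, and so were 52 of 54 measured bodies. The pooled body level of this family went from 0.678 to 0.104 and kept 15.3%, with no body above 0.278 in Dnmt3L KO. Among cytochrome P450 genes, oxidases of steroids and foreign compounds, 35 of 66 promoters and 71 of 83 bodies were lower, and the pooled body level went from 0.642 to 0.210. Serpins had 22 of 34 promoters lower and defensins 17 of 22. Of liver genes, 9 of 12 promoters were lower, among them *Apoa1* (the main HDL protein) from 0.972 to 0.333 and *Afp* (alpha-fetoprotein) from 0.969 to 0.313. The counts were 7 of 8 for keratin and skin genes and 2 of 2 for the milk and saliva genes that could be measured.

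Families with CpG-rich promoters had low promoter levels in both libraries. Of the Hox cluster promoters, 1 of 37 was lower by at least 0.3, of ribosomal protein promoters 1 of 68, of housekeeping promoters 1 of 15 and of C2H2 zinc finger (Zfp) promoters 18 of 334. Hox bodies were near empty as well, with 0.118 in WT and 0.0288 in Dnmt3L KO, and none of 19 was lower by 0.3. Zinc finger bodies went from 0.750 to 0.383, and 219 of 307 (71.3%) were lower, near the 73.7% of all bodies. Clustered protocadherins, cell adhesion genes of neurons, had 12 of 54 promoters lower (22.2%), near the 23.3% of all promoters. Their pooled body level went from 0.303 to 0.1002, where sites in overlapping bodies count once for each gene. Of their bodies, 4 of 54 (7.41%) were lower by at least 0.3, and the highest WT body level was 0.594. Of the imprinted genes, none of 5 paternal and none of 16 maternal promoters was lower by 0.3. *H19*, whose control region is methylated on the paternal allele, had the largest promoter difference of the paternal list, 0.290 in WT and 0.0357 in Dnmt3L KO.

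In the spermatogonia list, 16 of 19 promoters were under 0.2 in WT and 17 in Dnmt3L KO. Its bodies were mostly methylated in WT, with 13 of 16 at 0.6 or over. Other germ line lists differed at the promoter. In WT, 14 of 21 meiosis, 8 of 18 piRNA and 4 of 19 spermatid promoters were under 0.2. Of the spermatogonia list, 1 of 19 promoters was lower by at least 0.3. That was *Nanos2*, a translational repressor that keeps the male germ line stem cell state, with 0.857 in WT and 0.226 in Dnmt3L KO, on 35 and 31 calls. Its relative *Nanos3* had 0.864 and 0.667 on 22 and 12 calls. Bodies of this list kept 63.0%, from 0.801 to 0.504, and 7 of 16 were lower by 0.3. *Zbtb16* (PLZF), a stem cell factor, had 0.842 and 0.545 in its body, *Gfra1*, the GDNF co-receptor, had 0.807 and 0.526, and *Ret*, its signalling partner, had 0.734 and 0.543. *Kit*, the receptor of differentiating spermatogonia, had 0.826 and 0.417.

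In the list of piRNA and genome defence genes, 5 of 18 promoters were lower by at least 0.3, and 15 of 16 bodies. *Asz1* went from 0.373 to 0.0161 at the promoter, *Tdrd12* from 0.478 to 0.121 and *Mov10l1*, a helicase of piRNA biogenesis, from 0.365 to 0.0548. The *Piwil2* promoter was methylated in both libraries, with 0.930 and 0.625. All 16 bodies had a WT level of at least 0.6. A Dnmt3L KO level of at least 0.5 was found in 11 of them, against 31.8% of all bodies with that WT level, among them *Piwil1* at 0.604 and *Tdrd1* at 0.602, whereas *Tdrd6* had 0.134. *Nanos2*, which is in this list too, completes the 5 promoters. Of the meiosis list, 1 of 21 promoters and 14 of 17 bodies were lower by at least 0.3. That promoter was of *Mei1*, with 0.406 and 0.0667, and the pooled level of the meiosis promoters went from 0.140 to 0.0356. Starts of such genes are methylated in somatic cells, and the values for other cells in the sort given above bear on these promoters.

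Of 19 promoters of spermatid genes, 10 stood at 0.6 or over in WT, beside 21.8% of all promoters measured, and 10 were lower by at least 0.3. Among those of the packaging proteins, *Prm2* went from 0.921 to 0.364 and *Tnp2* from 0.783 to 0.368, whereas *Prm1* had 0.798 and 0.622. *Gapdhs*, the sperm glycolytic enzyme, went from 0.889 to 0.273. Of the methylation enzymes, the *Dnmt1* promoter at the start farthest upstream went from 0.935 to 0.353 and that of *Dnmt3l* from 0.763 to 0.0556, on 38 and 18 calls. These were the 2 of 9 promoters of that list that were lower by at least 0.3, and *Dnmt3a*, *Dnmt3b* and *Uhrf1* were under 0.1 in both libraries. The remaining lists were low at promoters in both libraries, with 3 of 16 pluripotency promoters (*Nanog*, *Esrrb* and *Dppa4*, where *Nanog* went from 0.80 to 0.103) and 2 of 11 Sertoli and Leydig cell promoters lower by 0.3.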

How the data were processed

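The authors prepared libraries by post-bisulfite adaptor tagging (PBAT), sequenced single-end reads, trimmed them and mapped them to mm10 with Bismark (submitters' processing notes and the study's methods). Its version, and whether duplicate reads were removed, were not given in the sources used here. For every covered CpG, the deposited values are counts of methylated and of unmethylated calls, used here, and a fraction, the same ratio of counts at all sites and not used further. Every autosomal site lay at a CG of GRCm38, whose sequence and RefSeq annotation (release 108.20200622) were used, with 42454 curated transcripts.

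Levels were pooled over calls with Python 3.11.15, NumPy 2.4.6, pandas 2.3.3 and SciPy 1.17.1, and the code was tested on simulated calls. Autosomal calls numbered 42893386 in WT and 18874945 in Dnmt3L KO, and 29.4% and 54.0% of listed sites had 1 call, so that single sites are imprecise. Groups came from the genotype labels. Named genes are the 10 largest promoter decreases, 10 highest Dnmt3L KO promoters, 5 largest increases (at least 50 calls), 5 bodies of each kind (at least 200 calls), members of the lists and *Dnmt3l*. Members and lists were chosen with earlier results of these data known. Classes by regional GC content and by 2 flanking bases, printed windows and sites listed in 1 library were added after the data were seen. A pattern for replication-dependent histones matched no gene, and *Dnmt3c* was not matched. The alternatives changed coverage, pooling, sites, gene models, feature order, promoter width, thresholds and the density window. A gene body and a window of a promoter with a high Dnmt3L KO level, both selected by these rules, are not reported here.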

Additional observations from a re-analysis of the deposited data

How the results depend on the processing

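The Dnmt3L KO level stayed below WT in every feature under all alternatives. In promoters the difference was 0.125 at sites with 3 calls or more in both libraries, 0.167 with 5 or more, 0.109 without sites over 20 calls, 0.161 with predicted gene models, 0.137 with exons before promoters, 0.117 as a mean of site levels, 0.103 over every listed site and 0.0483 within 0.5 kb of starts. In exons it was 0.349, 0.353, 0.360 (predicted models), 0.262 (exons first), 0.357 (site means) and 0.354 (every site). In introns it was 0.401, 0.347, 0.402 (without sites over 20 calls), 0.403, 0.397 and 0.406, and in intergenic DNA 0.336, 0.251, 0.489, 0.441, 0.491 and 0.459.

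Promoters lower by at least 0.3 numbered 1676 of 15809 (10.6%) with at least 30 calls and 2229 of 17723 (12.6%) within 0.5 kb of starts. At a difference of 0.5 they numbered 2376 of 20629 (11.5%). Bodies lower by 0.5 numbered 2759 of 17051 (16.2%). Promoters methylated in WT that kept their level numbered 1040 of 4499 (23.1%) in the main setting. They numbered 272 of 1298 (20.955%) with at least 30 calls and 503 of 2168 (23.2%) within 0.5 kb of starts. In these 2 settings the share thus moved less than the count. With other thresholds they numbered 455 of 4499 (10.1%) at a Dnmt3L KO level of 0.6 and 1758 of 4499 (39.1%) at 0.4. The other 11 values moved by less than their interval or by less than 1.5 times.

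No paired analysis was possible because each genotype has 1 library. Depth limits single sites and promoters with few calls, and the difference in depth between the libraries cannot be told apart from genotype.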

Other observations

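Mitochondrial DNA was left out of the comparisons. At its 214 listed CpG sites, the level was 0.354 in WT over 30797 calls (0.349 to 0.360), 0.321 in Dnmt3L KO over 13047 calls (0.313 to 0.330) and 0.383 in Pld6 KO over 45530 calls (0.379 to 0.388). Conversion of mitochondrial DNA could not be checked from CpG calls, so that these values are shares of calls read as methylated and may hold unconverted cytosines. In the same libraries, nuclear promoter sites with over 12 CpG sites within 100 bp had levels of 0.00667 in WT and 0.00422 in Dnmt3L KO.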
